A study of Rattus norvegicus with 24 samples.

Results

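The genes described here code for the glutamate receptors and for proteins that travel with them. The 34 genes were chosen by symbol and include the 4 AMPA subunit genes (Gria1 to Gria4), the 7 NMDA subunit genes (Grin1, Grin2a to Grin2d, Grin3a and Grin3b), the 5 kainate subunit genes (Grik1 to Grik5), delta and metabotropic receptor genes (among them Grid1 and Grm2 to Grm8) and 8 others, Cnih2, Cnih3, Neto1, Neto2, Gsg1l, Grip1, Grip2 and Slc17a8. Of these 34 genes, 33 had a row among the 35032 genes of the count table, and all 33 passed the filter on low counts in the comparison of the regions. Gsg1l, which codes for an AMPA receptor auxiliary protein, was not analysed here because no row carried that symbol.

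The counts come from 24 mRNA libraries of male Sprague-Dawley rats bought at 7 weeks of age, 3 for each pairing of 2 brain regions with 4 treatments. One region was the paraventricular nucleus (PVN), the hypothalamic centre of the hormonal stress response, and the other was the central amygdala (CEA). Normal controls (NC) had no operation. The HT group had part of the left liver lobe removed under isoflurane, and 2 further groups had this operation together with needles on one side at the Zusanli and Sanyinjiao points, a day ahead of surgery and again right after it, with current passed (EA) or with no current (SEA). All 4 groups were placed in the restraint device, and tissue was taken 24 h after the last stimulation. The study's methods describe 12 rats and say that brain samples came from different animals of a single batch. No source ties a library to a rat, and the p-values measure the spread between libraries. The labels give the tissue only as brain, and the region stands in the titles. A dissected piece holds many cell types, and fewer cells of a type and less mRNA per cell cannot be told apart.

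Glutamate is the main excitatory transmitter of the brain. AMPA, NMDA and kainate receptors are channels built of 4 subunits that open when glutamate binds: AMPA receptors carry fast transmission, NMDA receptors pass calcium and need glycine or D-serine as well, and kainate receptors act on both sides of the synapse. Metabotropic receptors signal through G proteins, and delta receptors chiefly hold synapses together by binding cerebellins. In the PVN, glutamate acting on these receptors excites the neurosecretory neurons, and in the CEA it carries sensory input onto neurons that mostly use GABA.

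The libraries held 13152772 to 18607032 counts. Levels are given as CPM, the counts scaled to a common library size with trimmed-mean factors, and a single count was worth 0.0537 to 0.0760 CPM. The region markers followed the labels: the 6 neuroendocrine markers listed for the PVN were all higher there (summed level 417 to 1333 CPM against 34.7 to 181 CPM in the CEA), and the 8 striatal and central amygdala markers were all higher in the CEA (2591 to 6177 CPM against 391 to 493 CPM). Some libraries stood apart. In PVN NC replicates 1 and 3 and CEA HT replicate 2, long genes were low relative to short genes: with expressed genes ranked by length into 5 equal classes, the median log2 deviation from the region in the longest class minus that in the shortest was -0.34, -0.29 and -0.54, against -0.09 to 0.19 in the other 21 libraries. Choroid plexus markers summed to 369 to 1759 CPM in CEA EA replicate 1, NC replicate 2 and SEA replicate 2 and were at or below 22.1 CPM in every other library (Otx2, a defining marker, was at or near 0 in all 24), and cortical markers were highest in CEA HT replicate 3 and NC replicate 3 (338 and 334 CPM). The mitochondrial share of counts was 3.80% in CEA EA replicate 2, between 10.1 and 14.4% in the remaining CEA libraries and between 7.07 and 8.77% in the PVN. The regional count was also computed without the libraries low in long genes or high in choroid plexus or cortical markers.

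Most of the receptor genes differed in level between the CEA and the PVN. With all 24 libraries and treatment as a term, 24 of the 33 genes had an adjusted p-value under 0.05 in the quasi-likelihood test of edgeR, whereas 56.3% of the 17768 genes tested did so. Of these, 14 were higher in the CEA (26.9% of all genes were called in that direction) and 10 in the PVN (29.4% of all genes). The median log2 fold change, CEA minus PVN, was 0.15 over the receptor genes and -0.01 over all genes tested. For 10 of the 33 genes the 12 CEA libraries did not overlap the 12 PVN libraries, 5 in each direction, which was the case for 14.3% of all genes. Without the 3 libraries low in long genes the count was 25 (57.5% of all genes), without the 3 choroid plexus libraries 24 (51.6%) and without the 2 cortical libraries 25 (53.5%), and each of the 24 genes kept its call in all 3 of these fits. The 3 fits were chosen after the data were seen.

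**Figure D1:**
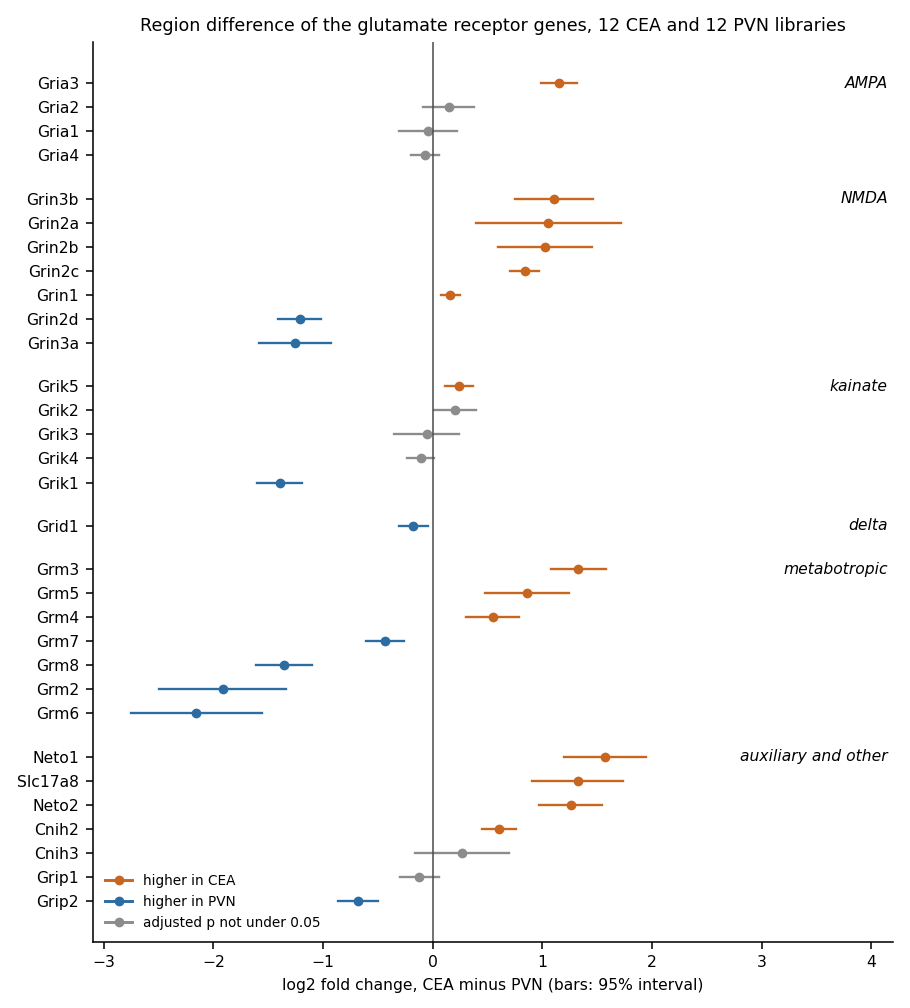
Log2 fold change of CEA minus PVN for 31 of the glutamate receptor genes, by class, from all 24 libraries, with bars for the 95% interval. Orange marks the 14 genes with more mRNA in the CEA, blue the 9 shown with more in the PVN and grey the 8 shown that did not pass the adjusted threshold.

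Of the AMPA subunits, only Gria3 passed the test between the regions. Gria3 ran from 141 to 223 CPM in the CEA with a median of 182 CPM, and from 64.1 to 90.5 CPM in the PVN with a median of 81.1 CPM. No CEA library fell within the PVN range, and the gene was 2.23-fold higher in the CEA (log2 fold change 1.16, SE 0.08, edgeR adjusted p = 2.15e-11). Gria2, the subunit that keeps calcium out of AMPA channels and the highest of the class per kilobase, ran from 284 to 593 CPM in the CEA and from 334 to 441 CPM in the PVN, with medians of 412 and 399 CPM. The ranges overlapped and the difference did not pass the test (log2 fold change 0.15, 95% interval -0.08 to 0.38, adjusted p = 0.275). Gria1, which is added to synapses during plasticity, and Gria4 differed by -0.04 and -0.07 on the log2 scale, with 95% intervals from -0.30 to 0.22 and from -0.20 to 0.06, so a difference of the size seen for Gria3 lay outside both intervals.

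The NMDA subunits all differed between the regions, in both directions. Grin1, the subunit every NMDA receptor needs, ran from 356 to 461 CPM in the CEA and from 328 to 396 CPM in the PVN, with medians of 403 and 360.2 CPM. The ranges overlapped, and Grin1 was 1.12-fold higher in the CEA (SE 0.04 on the log2 scale, edgeR adjusted p = 0.00168). Within any single treatment Grin1 did not pass the test. The glutamate-binding GluN2 subunits, which set how long the channel stays open and how strongly magnesium blocks it, divided between the regions. Grin2c ran from 105 to 159 CPM in the CEA and from 61.9 to 81.8 CPM in the PVN, without overlap (log2 fold change 0.84, SE 0.06, adjusted p = 1.16e-10). Grin2d, whose channels close slowly and are weakly blocked by magnesium, ran the other way, from 20.5 to 42.4 CPM in the CEA and from 52.9 to 76.8 CPM in the PVN. Grin2d did not overlap either and was 2.32-fold higher in the PVN (log2 fold change -1.21, SE 0.09, adjusted p = 1.54e-10).

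Grin2a and Grin2b, the GluN2 subunits that predominate in the forebrain, were higher in the CEA by 1.05 (SE 0.32) and 1.03 (SE 0.21) on the log2 scale, with adjusted p = 0.00732 and 0.000181. The ranges of the 2 regions overlapped for both genes. Grin2a stood at 6.40 CPM in CEA HT replicate 2 and at 21.7 to 64.4 CPM in the other CEA libraries, and in the PVN at 2.28 and 3.76 CPM in NC replicates 1 and 3 and at 10.8 to 22.5 CPM elsewhere. Grin2b stood at 26.8 CPM in CEA HT replicate 2 and at 39.95 to 78.1 CPM in the other CEA libraries, against 7.65 to 31.6 CPM in the PVN. CEA HT replicate 2 and PVN NC replicates 1 and 3 are the ones low in long genes, and without them the log2 fold change was 0.86 for both genes, with adjusted p = 2.2e-05 for Grin2a and 1.08e-07 for Grin2b. The glycine-binding GluN3 subunits, which lower calcium entry, also ran in opposite directions: Grin3a was 2.38-fold higher in the PVN (log2 fold change -1.25, SE 0.16, adjusted p = 3.8e-07) and Grin3b 2.15-fold higher in the CEA (1.11, SE 0.17, adjusted p = 7.89e-06). Both were low, with 80 to 510 counts for Grin3a and 45 to 271 counts for Grin3b per library.

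**Figure D2:**
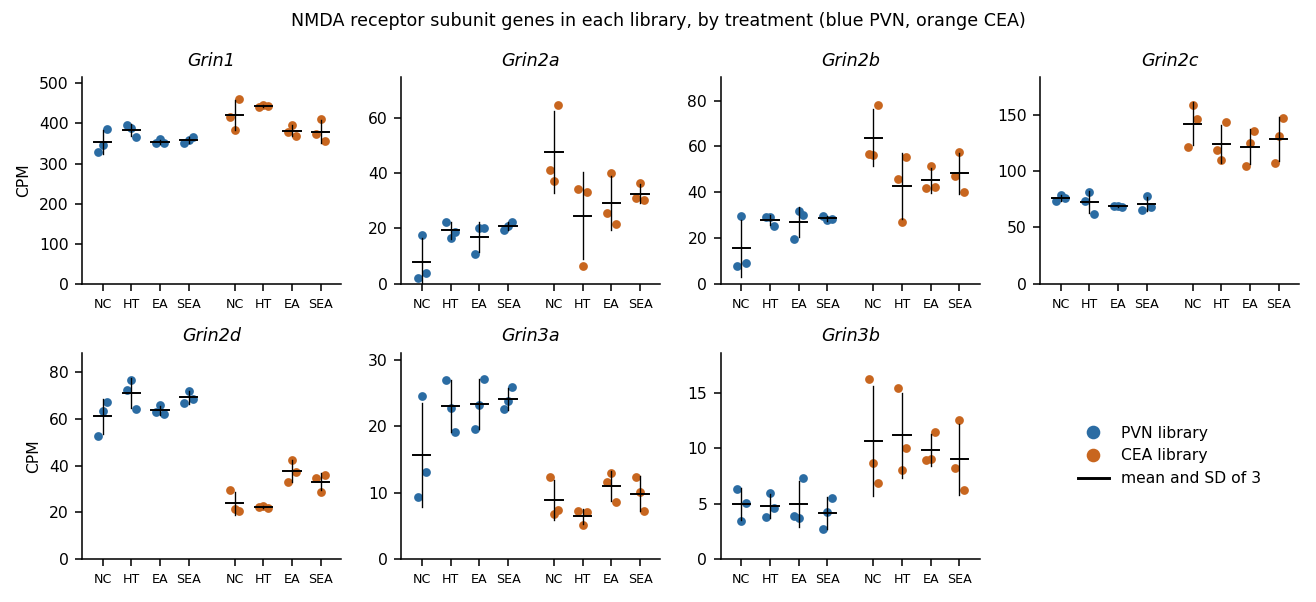
CPM of the 7 NMDA subunit genes in each library (points), by treatment, with the mean and SD of the 3 libraries of a group in black. Grin2c is higher and Grin2d lower in every orange CEA library than in any blue PVN library, and within each region Grin2a and Grin2b are lowest in PVN NC replicates 1 and 3 and in CEA HT replicate 2.

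Among the kainate subunits, Grik1 showed the clear difference. Grik1, which codes for GluK1, ran from 5.48 to 11.2 CPM in the CEA with a median of 9.78 CPM, and from 16.8 to 29.0 CPM in the PVN with a median of 23.8 CPM. Every PVN library was above every CEA library, with a log2 fold change of -1.39 (SE 0.10, edgeR adjusted p = 3.55e-11). Grik5, which codes for the high-affinity subunit GluK5 and was the highest of the class per kilobase, ran from 129 to 224 CPM in the CEA and from 124 to 170.1 CPM in the PVN, with medians of 169 and 141 CPM. It was 1.18-fold higher in the CEA (adjusted p = 0.00187), with overlapping ranges. Grik2, Grik3 and Grik4 did not pass the test (log2 fold changes 0.20, -0.05 and -0.11). Grid1, a delta receptor gene, was slightly higher in the PVN, with medians of 33.7 CPM in the PVN (26.3 to 38.5) and 29.5 CPM in the CEA (22.6 to 39.0) and a log2 fold change of -0.18 (SE 0.06, adjusted p = 0.0249). Grid1 no longer passed when PVN HT replicate 2 (adjusted p = 0.0524) or PVN NC replicate 3 (adjusted p = 0.0644) was left out, or with no filter on low counts (adjusted p = 0.0744).

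The metabotropic genes divided by subtype within their groups. Of the group II receptors, which lower cyclic AMP and restrain transmitter release, Grm3 ran from 81.1 to 157 CPM in the CEA with a median of 141 CPM, and from 23.0 to 71.7 CPM in the PVN with a median of 60.0 CPM. Its partner Grm2 ran from 4.26 to 20.6 CPM in the CEA with a median of 8.19 CPM, and from 21.2 to 59.9 CPM in the PVN with a median of 41.2 CPM. Neither gene overlapped between the regions, and the directions were opposite: Grm3 was 2.51-fold higher in the CEA (log2 fold change 1.33, SE 0.12, edgeR adjusted p = 2.66e-09) and Grm2 3.77-fold higher in the PVN (-1.92, SE 0.28, adjusted p = 2.98e-06). Grm3 is found in astrocytes as well as neurons, and of the 4 astrocyte markers 1 was called in each direction. Grm5, a group I receptor that raises calcium through phospholipase C, was 1.81-fold higher in the CEA (log2 fold change 0.86, SE 0.18, adjusted p = 0.000367).

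The group III receptors, which sit mostly on axon terminals, also ran both ways. Grm8 stood at 4.44 to 10.8 CPM in the CEA and 16.8 to 23.1 CPM in the PVN, without overlap (log2 fold change -1.36, SE 0.12, edgeR adjusted p = 2.08e-09). Grm6, best known from the retina, was the lowest of all 33 genes, with 2 to 21 counts per library in the CEA (0.11 to 1.38 CPM, median 0.83) and 36 to 80 counts in the PVN (2.16 to 4.85 CPM, median 3.07). It was 4.45-fold higher in the PVN (log2 fold change -2.15, SE 0.29, adjusted p = 1e-06), and the CEA values rest on few reads. Grm7 was higher in the PVN by a small amount (log2 fold change -0.44, SE 0.08, adjusted p = 9.56e-05) and Grm4 was higher in the CEA (0.55, SE 0.12, adjusted p = 0.000357).

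**Figure D3:**
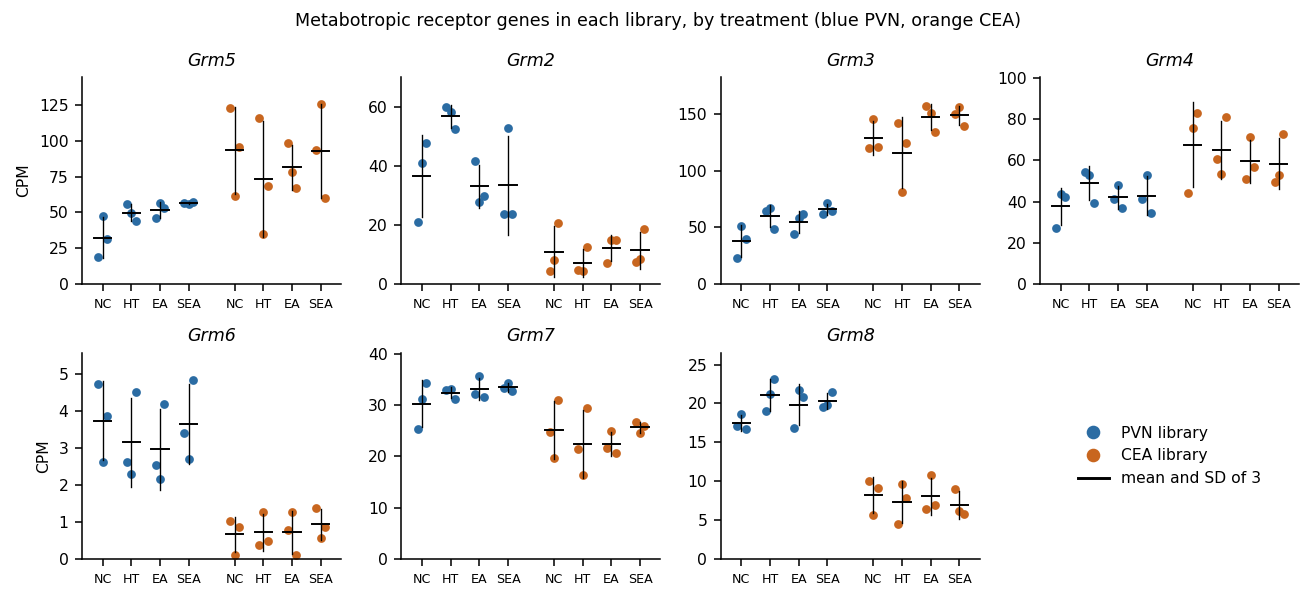
CPM of 7 metabotropic receptor genes in each library (points), by treatment, with the mean and SD of the 3 libraries of a group in black. Grm3 is higher and Grm2, Grm6 and Grm8 are lower in every orange CEA library than in any blue PVN library, and the 3 PVN HT libraries hold 52.4 to 59.9 CPM of Grm2.

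Of the 7 accessory genes tested, 4 were higher in the CEA (26.9% of all genes) and 1 in the PVN (29.4%). Neto1 and Neto2, the auxiliary subunits that slow kainate receptor currents, ran from 42.2 to 122 CPM and from 22.8 to 63.0 CPM in the CEA, with medians of 74.2 and 39.1 CPM. In the PVN they ran from 13.9 to 31.3 CPM and from 12.7 to 21.9 CPM, with medians of 27.4 and 17.8 CPM. Neither gene overlapped between the regions, with log2 fold changes of 1.57 (SE 0.18, edgeR adjusted p = 9.39e-08) and 1.26 (SE 0.14, adjusted p = 4.56e-08). Slc17a8, the vesicular glutamate transporter VGLUT3, had a range of 3.70 to 19.2 CPM (median 10.9) in the CEA and 3.56 to 6.39 CPM (median 4.46) in the PVN. All CEA libraries but SEA replicate 3 lay above the PVN range, with a log2 fold change of 1.32 (SE 0.20, adjusted p = 5.55e-06). Cnih2, a cornichon that slows AMPA receptor closing, was the highest accessory gene per kilobase, with 217 to 353 CPM (median 300.3) in the CEA and 170.0 to 244 CPM (median 185) in the PVN, and was 1.52-fold higher in the CEA (adjusted p = 2.52e-07). Cnih3 (log2 fold change 0.27) and Grip1 (-0.12) did not pass the test. Grip2, which like Grip1 is a scaffold that binds GluA2, was 1.60-fold higher in the PVN (log2 fold change -0.68, SE 0.09, adjusted p = 4.22e-07).

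Promoter sequence was available for 21 of the 33 genes in the RefSeq table of the GRCr8 rat assembly, matched by symbol. The 250 bases upstream of the start are shown for Neto2 and Cnih2, accessory genes with more mRNA in the CEA, and for Grin2c and Grin2d, the GluN2 pair with opposite regional differences. They are written 5′ to 3′ on the gene's own strand, from chr19:37517305-37517554 (plus) for Neto2, chr1:211834438-211834687 (minus) for Cnih2, chr10:101005139-101005388 (minus) for Grin2c and chr1:105481237-105481486 (minus) for Grin2d. Capitals mark the GC box, searched as GGGCGG on both strands with overlapping matches allowed.
Neto2: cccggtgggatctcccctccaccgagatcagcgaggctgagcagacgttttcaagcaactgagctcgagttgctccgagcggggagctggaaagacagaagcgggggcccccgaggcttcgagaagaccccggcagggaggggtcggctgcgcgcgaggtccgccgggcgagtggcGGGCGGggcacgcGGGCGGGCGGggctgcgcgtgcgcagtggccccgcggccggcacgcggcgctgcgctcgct
Cnih2: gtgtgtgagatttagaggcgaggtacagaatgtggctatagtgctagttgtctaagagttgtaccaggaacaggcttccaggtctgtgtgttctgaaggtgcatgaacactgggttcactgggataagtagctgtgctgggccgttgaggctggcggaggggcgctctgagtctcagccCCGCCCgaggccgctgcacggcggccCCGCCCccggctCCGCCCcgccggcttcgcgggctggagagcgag
Grin2c: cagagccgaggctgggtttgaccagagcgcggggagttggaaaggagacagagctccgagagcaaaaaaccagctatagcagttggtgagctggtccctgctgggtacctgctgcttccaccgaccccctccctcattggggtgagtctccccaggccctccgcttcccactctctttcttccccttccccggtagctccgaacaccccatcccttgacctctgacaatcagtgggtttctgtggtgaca
Grin2d: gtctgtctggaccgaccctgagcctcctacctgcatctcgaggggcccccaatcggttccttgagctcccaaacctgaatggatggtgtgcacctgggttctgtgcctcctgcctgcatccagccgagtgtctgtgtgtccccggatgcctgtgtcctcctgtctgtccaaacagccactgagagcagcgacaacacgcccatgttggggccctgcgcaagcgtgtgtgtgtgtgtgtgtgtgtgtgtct

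Neto2 and Cnih2 each held 3 such letter runs, and Grin2c and Grin2d held none. At least 1 match was present in 3 of the 8 promoters of genes called toward the CEA, 1 of the 7 of genes called toward the PVN and 2 of the 6 of genes not called. Across 27457 rat promoters of the same length the share was 32.4%, and 8.09% held 3 or more. A match describes letters in the window and not a bound site.

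Levels of different genes were compared per kilobase of the gene model given in the table, which holds different amounts of untranslated sequence for different genes. On this scale Cnih2 was highest in both regions, at 221 CPM per kb ± 33.9 in the CEA and 145 CPM per kb ± 18.0 in the PVN (SD, n = 12), followed by Grin1 (78.3 ± 6.76 and 69.8 ± 3.79), Gria2 (64.5 ± 16.2 and 58.3 ± 4.33) and Grik5 (45.8 ± 7.07 and 38.6 ± 3.42). Next in order came Grm3 in the CEA (38.3 ± 6.08) and Gria1 in the PVN (37.9 ± 5.16). The ranges of Grin1 and Gria2 overlapped in both regions, as did those of Grik5 and the next gene in the order, and in the CEA those of Gria2 and Grik5 and of Grm3 and Gria1 overlapped too. Grm6 was last in both regions, at 0.172 CPM per kb in the CEA and 0.765 CPM per kb in the PVN.

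The makeup of the receptor classes was then expressed as shares of the summed counts per kilobase. Among the AMPA genes Gria3 made up 22.2% ± 3.1 in the CEA and 11.5% ± 0.4 in the PVN (SD, n = 12), and Gria2 was the largest share in both (40.2% and 43.1%). Among the GluN2 genes Grin2d made up 34.7% ± 2.3 in the PVN (31.2 to 40.3%) and 11.3% ± 3.2 in the CEA (6.0 to 15.0%). By these counts Grin2c was the largest share in both regions, at 55.1% ± 5.9 in the CEA and 42.6% ± 5.9 in the PVN. The gene models held 4669 bases for Grin2c, 4259 for Grin2a and 5261 for Grin2b. How much of each transcript they cover was not checked, so the order of these genes is uncertain. Grin2a fell below 5% only in PVN NC replicates 1 and 3 and CEA HT replicate 2. Of the group II pair, Grm2 took 36.1% ± 9.0 in the PVN and 5.6% ± 2.9 in the CEA. Shares of a sum move together, so a higher share of one gene lowers the rest.

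**Figure D4:**
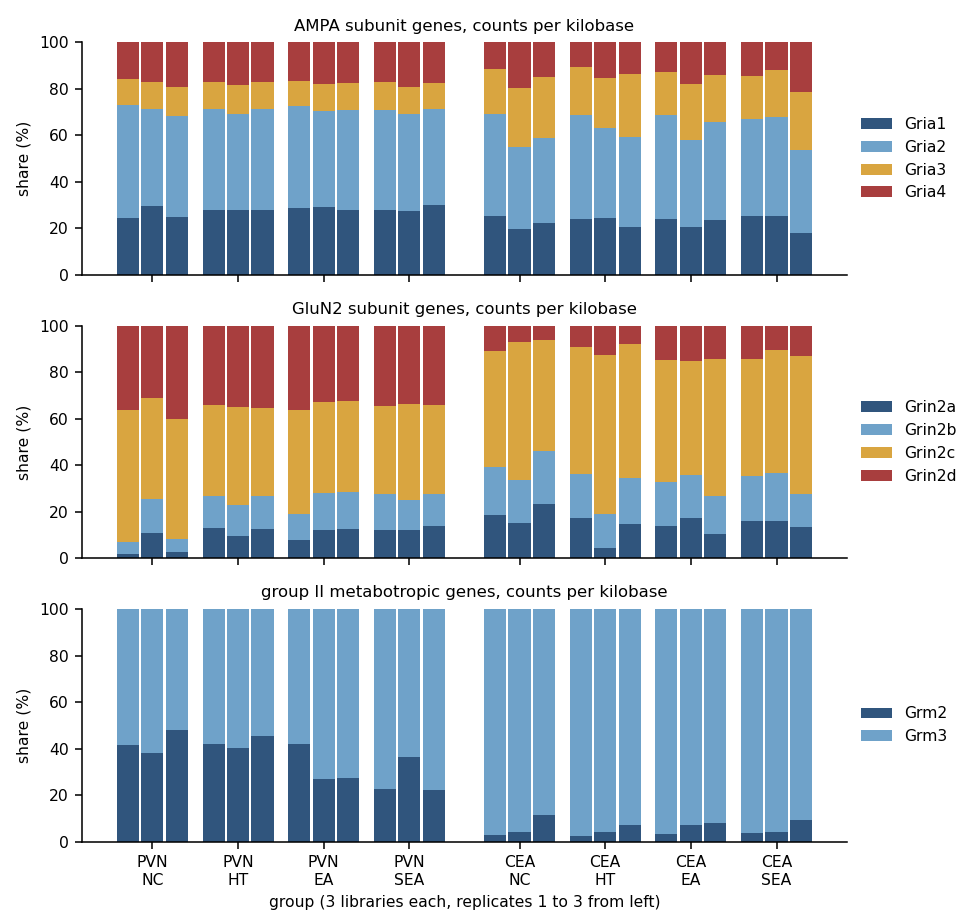
Shares (%) of the summed counts per kilobase within the AMPA genes, the GluN2 genes and the group II metabotropic genes, a bar per library, replicates 1 to 3 from the left in each group. The Gria3 share is larger and the Grin2d and Grm2 shares are smaller in the CEA libraries, and the Grin2a share is smallest in PVN NC replicates 1 and 3 and CEA HT replicate 2.

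The unoperated rats gave the same comparison with 3 libraries a side. There 15 of the 33 genes passed the threshold (26.4% of 16748 genes did), 10 toward the CEA (12.7% of all genes) and 5 toward the PVN (13.7%), and 17 passed with the replicate number as a block (27.5% of all genes). Grin2a and Grin2b differed by 2.58 (SE 0.69) and 2.03 (SE 0.50) on the log2 scale, and by 0.40 to 0.80 and 0.67 to 0.78 within the operated groups. PVN NC replicates 1 and 3, low in long genes, enter the NC values, and leaving out either, or CEA NC replicate 2 or 3, ended the call of both genes (adjusted p = 0.0529 to 0.0955), with log2 fold changes of 2.15 to 2.73 for Grin2a and 1.71 to 2.12 for Grin2b in those fits. Over all 10 alternatives in NC they were 2.15 to 3.96 for Grin2a and 1.71 to 2.93 for Grin2b. When the region difference was fitted within each treatment alone, 15, 17, 20 and 17 of the 33 genes passed in NC, HT, EA and SEA, where 26.4%, 21.3%, 27.8% and 30.5% of all genes did. Gria3, Grin2c, Neto1, Neto2, Grm3 and Cnih2, all with more mRNA in the CEA, and Grin2d, Grik1, Grm6 and Grm8, with more in the PVN, passed in all 4. In NC, the call of Cnih2 was lost without any 1 library other than PVN NC replicate 3 (log2 fold change 0.41 to 0.62, adjusted p = 0.0541 to 0.108), and that of Grm6 without CEA NC replicate 3 or PVN NC replicate 1 or 3 (-2.70 to -2.28, adjusted p = 0.0568 to 0.0637).

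Other genes of the glutamate synapse were counted in the same fit, in which 26.9% of all genes were called toward the CEA and 29.4% toward the PVN. Of 17 tested scaffolds and kinases of the postsynaptic density, 12 were higher in the CEA and 0 in the PVN, with a median log2 fold change of 0.62. The anchoring protein gene Akap5 stood at 43.3 to 140 CPM in the CEA and 5.25 to 14.3 CPM in the PVN, and Homer1, which links group I metabotropic receptors to calcium stores, at 30.3 to 98.6 CPM and 8.16 to 20.1 CPM. Of 20 tested auxiliary proteins and synaptic organizers, 7 were higher in the CEA and 8 in the PVN. The cerebellin Cbln1, a partner of delta receptors, stood at 149 to 197 CPM in the PVN and 6.85 to 69.3 CPM in the CEA. Of 14 genes for glutamate release, synthesis and uptake, 5 were higher in the CEA and 7 in the PVN. Among these, the vesicular transporter Slc17a6 was higher in the PVN and Slc17a7 in the CEA, where it ranged from 7.05 to 302 CPM between libraries.

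Summed mRNA of cell type markers was set beside the regional differences. All 5 oligodendrocyte markers were higher in the CEA (summed level 24262 to 40405 CPM against 9308 to 15462 CPM in the PVN), as were all 5 microglial markers (248 to 352 against 177 to 246 CPM). Of the 4 neuronal markers, 2 were higher in the CEA and 1 in the PVN, and their sums overlapped (1547 to 2482 and 1970 to 2301 CPM). Of the 3 thalamic markers, 2 were higher in the PVN and 0 in the CEA (sums 32.0 to 135 CPM in the PVN and 16.6 to 154 CPM in the CEA). Their part in the regional differences of the receptor genes was not tested.

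Within the CEA, some receptor genes varied along with the striatal and central amygdala markers from library to library. Gene levels and marker sums were both taken as log2 CPM for the correlations. Across the 12 CEA libraries, Cnih2 correlated with the summed markers with Pearson r = 0.91 (permutation p = 4e-05) and Spearman rho = 0.90 (permutation p = 0.00018), and with r = 0.85 without the 2 libraries farthest from the median. Grik5 gave r = 0.81 (permutation p = 0.00154) and rho = 0.86 (permutation p = 0.00056), and r = 0.70 without the 2 farthest. Slc17a8 gave r = 0.83 (permutation p = 0.00058) and rho = 0.76 (permutation p = 0.00535), and r = 0.69 without them. Over the 66 relations computed in both regions, the Benjamini-Hochberg adjusted p of r was 0.00132, 0.0169 and 0.00957 and that of rho 0.00594, 0.0123 and 0.0706. The same held within treatments: after subtracting each group's mean, r was 0.90, 0.86 and 0.88. Slc17a8, for example, stood at 17.0, 18.3 and 19.2 CPM in NC replicate 1, HT replicate 1 and SEA replicate 2, the 3 libraries with the highest marker sums (5802 to 6177 CPM), and at 3.70 CPM in SEA replicate 3, the lowest (2591 CPM).

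In the PVN the relation was computed with the summed thalamic markers. Grm4 followed their sum closely, with r = 0.99 and rho = 0.97 over 12 libraries (permutation p = 1e-05 for both, the smallest that 100000 permutations can give, adjusted p = 0.00066) and r = 0.99 without the 2 farthest libraries. Grin2d gave r = 0.89 (permutation p = 0.00045, adjusted p = 0.00957) but rho = 0.71 (permutation p = 0.0132, adjusted p = 0.102), and r = 0.65 without the 2 farthest. Grm2 gave r = 0.72 (permutation p = 0.00393, adjusted p = 0.0371), rho = 0.70 (permutation p = 0.0147, adjusted p = 0.102) and r = 0.56 without the 2 farthest. Grm7 gave r = 0.82 (permutation p = 0.00578, adjusted p = 0.0477), rho = 0.63 (permutation p = 0.0325, adjusted p = 0.143) and r = 0.54 without the 2 farthest. Grm6 ran the other way, with r = -0.76 (permutation p = 0.00138, adjusted p = 0.0169), rho = -0.78 (permutation p = 0.00475, adjusted p = 0.0706) and r = -0.73 without them. In all, 3 genes with the CEA list and 5 with the PVN list had an adjusted p of r under 0.05, and 2 of the 3 and 1 of the 5 also had one of rho. These points share library preparation, and levels that move together across dissections do not show where a gene is expressed.

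**Figure D5:**
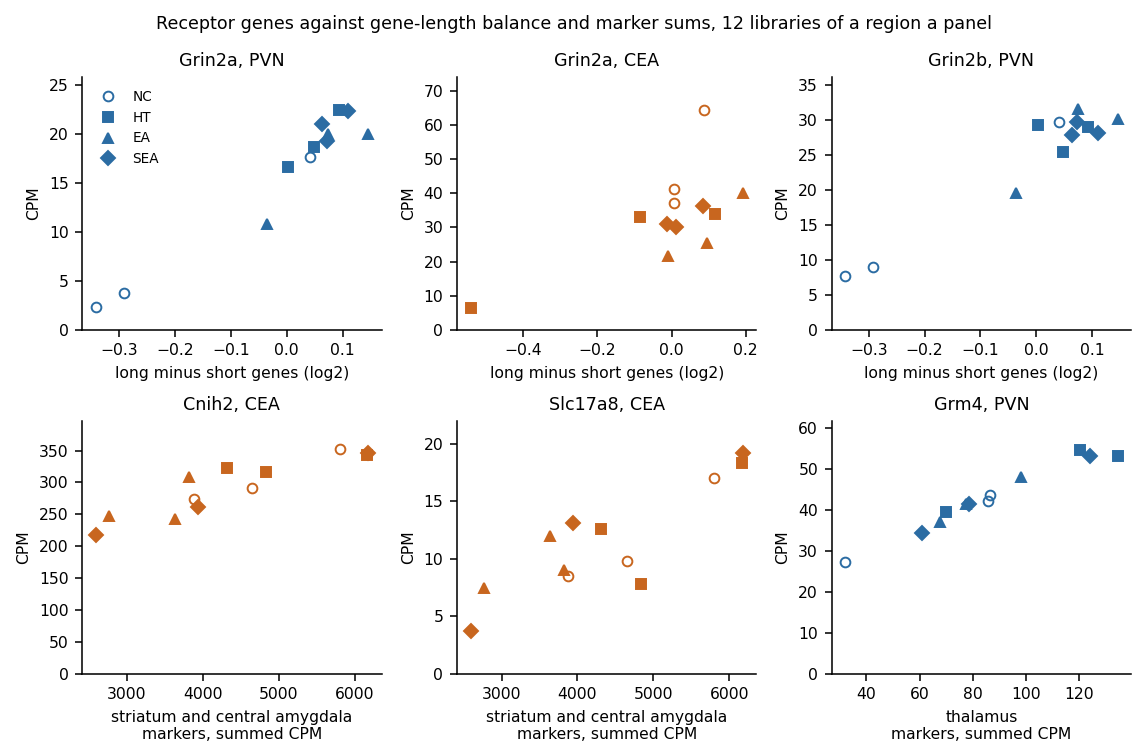
CPM of Grin2a and Grin2b against the balance of long and short genes (top), and of Cnih2, Slc17a8 and Grm4 against summed marker CPM (bottom), 12 libraries a panel, with marker shapes for treatment. Grin2a is lowest where long genes are low (-0.34 and -0.29 in the PVN, -0.54 in the CEA), and Grm4 rises with the thalamic sum (r = 0.99, computed on log2 values).

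The treatment comparisons asked what hepatectomy does to these genes and whether needling with or without current changes it. Comparisons with the same control group share its libraries. For HT against NC in the PVN, 0 of the 33 genes passed the adjusted threshold by edgeR (0.012% of 16727 genes did), 0 passed by DESeq2 (0.167% of all genes), and 4 had an unadjusted p under 0.05 by edgeR, where 11% of all genes did. All 4, Grm2 and Grm3 among them, had higher values in HT (5.69% of all genes), and the groups did not overlap for 6 of the 33 genes (17.1% of all genes). Grm2 stood at 21.2, 40.9 and 47.8 CPM in NC and at 59.9, 58.3 and 52.4 CPM in HT (log2 fold change 0.63, SE 0.26, edgeR adjusted p = 0.418), and no NC library reached the HT range. Grm3 stood at 23.0, 51.5 and 39.6 CPM in NC and at 64.1, 66.9 and 48.6 CPM in HT (0.65, SE 0.27), where NC replicate 2 lay within the HT range. Marker sums also differed between these libraries. The neuroendocrine sum was 1059, 1002 and 1333 CPM in NC and 908, 953 and 417 CPM in HT, and the astrocyte sum 1550 to 1988 CPM in NC and 1241 to 1526 CPM in HT. The vessel sum was 108 to 126 CPM in NC and 134 to 186 CPM in HT, the cortical and hippocampal sum 4.68 to 19.3 and 20.5 to 23.7 CPM, and the choroid plexus sum 10.2 to 12.1 and 6.49 to 8.95 CPM. None of these 5 sums overlapped between the groups, whereas the thalamic sum did (32.0, 86.5 and 85.6 CPM in NC, 121, 135 and 69.9 CPM in HT). The neuronal, striatal and central amygdala, oligodendrocyte and microglial sums overlapped too. No marker of these lists passed the adjusted threshold, and their part in the receptor values was not tested.

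How many genes passed in the PVN depended on which NC libraries were kept. PVN NC replicates 1 and 3 held 36 and 68 counts of Grin2a, and replicate 2 held 322. Of the 33 genes, 20 had their lowest PVN level in NC replicate 1 and 17 were among the lowest 2 in NC replicate 3. The share of all genes at these ranks was not computed, and both libraries were low in long genes over all expressed genes. Without NC replicate 2, the NC libraries left were the 2 low in long genes (-0.34 and -0.29, against 0.04 in replicate 2). In that fit 12 of the 33 genes passed in HT against NC, all higher in HT, while 20.2% of all genes passed. Among them were Gria1, Gria3, Gria4, Grin2a, Grin2b, Grin3a, Grik3, Grm3, Grm5 and Neto1, with Grin2a at a log2 fold change of 2.66 (SE 0.25, edgeR adjusted p = 0.000791). Without NC replicates 1 and 3 instead, where the lone NC library is assumed to vary like the others, 0 of the 33 passed (0.00572% of all genes) and 1 had an unadjusted p under 0.05, as did 515 of 17469 genes. EA against NC and SEA against NC share the NC libraries. In each, 0 of the 33 genes passed by edgeR (0.0119% and 0% of all genes) and by DESeq2 (0.339% and 0.144%), 4 and 5 had an unadjusted p under 0.05 by edgeR (10.1% and 12.7% of all genes), and 14 and 15 passed without NC replicate 2 (19% and 24.3% of all genes).

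Electroacupuncture was compared with HT next. In the PVN, 0 of the 33 genes passed in EA against HT by edgeR (0.0961% of all genes) and 3 had an unadjusted p under 0.05 (5.67% of all genes), all lower in EA (3.57% of all genes). The groups did not overlap for 4 of the 33 (11.3% of all genes). Grm2, the presynaptic group II autoreceptor, stood at 41.6, 27.7 and 30.0 CPM in EA against 59.9, 58.3 and 52.4 CPM in HT. No EA library reached the HT range (log2 fold change -0.78, SE 0.14, 95% interval -1.11 to -0.45, edgeR adjusted p = 0.137). DESeq2 called Grm2 alone of the 33 (adjusted p = 2.17e-05, with 0.541% of all genes called), as did edgeR with no filter on low counts (adjusted p = 0.0150, 0.279% of all genes called). Grik5 stood at 137, 133 and 124 CPM in EA and 146, 159 and 148 CPM in HT (log2 fold change -0.20, SE 0.06). Grin1 stood at 351, 361 and 351 CPM in EA and 396, 388 and 366 CPM in HT (-0.11, SE 0.05). Neither gene overlapped between the groups, and the differences were 1.15-fold and 1.08-fold.

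Needles without current gave mixed Grm2 levels. In SEA, Grm2 stood at 23.6, 52.9 and 23.8 CPM, so that replicate 2 lay in the HT range and replicates 1 and 3 below every EA library (SEA against HT log2 fold change -0.77, SE 0.28, edgeR adjusted p = 0.981). Grm2 was the only receptor gene with an unadjusted p under 0.05 in that comparison (4.38% of all genes), where 0 of the 33 and 0% of all genes passed the adjusted threshold by edgeR and 0 of the 33 by DESeq2 (0.126% of all genes). Without SEA replicate 2, Grm2 passed (log2 fold change -1.27, SE 0.08, adjusted p = 0.0153), and it was then the only gene of 16945 to do so. The thalamic marker sum, which varied with Grm2 in the PVN, was 121, 135 and 69.9 CPM in HT, 77.5, 98.3 and 67.8 CPM in EA and 78.5, 124 and 60.7 CPM in SEA. The sum was high in SEA replicate 2 as Grm2 was, but within EA it was highest in replicate 2, where Grm2 was lowest. Its part in the Grm2 difference was not tested. Between EA and SEA, 0 of the 33 genes passed by edgeR (0% of all genes) or DESeq2 (0.145%), and 0 had an unadjusted p under 0.05 in edgeR (5.21% of all genes).

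In the CEA no receptor gene passed in any comparison of treatments, by edgeR or by DESeq2, which called 0.0183% to 0.218% of all genes. For HT against NC by edgeR, 0% of all genes passed, and 0 of the 33 receptor genes had an unadjusted p under 0.05 (3.75% of all genes did). With the replicate number as a block, 0 passed and 5 had an unadjusted p under 0.05, as did 985 of all 16413 genes. Without the block, the smallest p was that of Grik5, which stood at 180.5, 155 and 163 CPM in NC and 203, 224 and 183 CPM in HT (log2 fold change 0.31, SE 0.14, edgeR adjusted p = 0.918). Grin2b stood at 56.9, 56.2 and 78.1 CPM in NC and 46.0, 26.8 and 55.3 CPM in HT (-0.55, SE 0.27). Gria4 stood at 125, 126 and 136 CPM in NC and 112, 106 and 108 CPM in HT (-0.23, SE 0.12). In all 3 genes the groups did not overlap, as in 4 of the 33 and 10.4% of all genes, and CEA HT replicate 2, the library low in long genes, was the lowest of all CEA libraries for Grin2b and Gria4 and the highest for Grik5. The astrocyte marker sum was 1719 to 2375 CPM in NC and 1310 to 1473 CPM in HT. The microglial sum was 251 to 326 CPM in NC and 332 to 352 CPM in HT. Neither overlapped between the groups, whereas the sums of the other marker lists did. The part of these markers in the receptor values was not tested.

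For EA against HT in the CEA, 0 of the 33 genes passed by edgeR (0% of all genes) and 5 had an unadjusted p under 0.05, while 3.19% of all genes did. Without EA replicate 2, the library with the low mitochondrial share, 1 of the 33 had one, as did 253 of 16791 genes. Without EA replicate 1, 2 of the 33 had one, as did 325 of 16813 genes. The study left a CEA EA library, which it does not name, out of its co-expression network. Grin2d stood at 33.0, 42.4 and 37.4 CPM in EA and 22.4, 22.7 and 21.7 CPM in HT (log2 fold change 0.74, SE 0.15, edgeR adjusted p = 0.930). Grin3a stood at 11.6, 13.0 and 8.51 CPM in EA and 7.18, 5.12 and 7.03 CPM in HT (0.76, SE 0.25). Grip2 stood at 25.7, 35.9 and 24.9 CPM in EA and 23.2, 19.3 and 16.5 CPM in HT (0.53, SE 0.21). EA replicate 2 held the highest EA value of Grin2d, Grin3a and Grip2. The other 2 were Grik1 (0.61) and Grik5 (-0.37), and in all 5 genes the EA libraries did not overlap the HT libraries, as in 7 of the 33 and 9.56% of all genes. Grin2d, Grin3a, Grip2 and Grik1 had more mRNA in the PVN than in the CEA in the regional comparison, and Grik5 less.

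Grin2d was also measured against needling without current. In SEA, Grin2d stood at 34.7, 28.9 and 35.9 CPM, above the HT libraries (log2 fold change 0.54, SE 0.15, edgeR adjusted p = 0.959), and EA minus SEA was 0.20 (95% interval -0.12 to 0.51). In NC it stood at 29.6, 21.3 and 20.5 CPM, and EA was higher than NC by 0.68 (SE 0.17, adjusted p = 0.960). With edgeR, SEA against HT gave 0 calls and 2 genes at an unadjusted p under 0.05, EA against NC 0 and 3, SEA against NC 0 and 2, and EA against SEA 0 and 0, where 3.07%, 4.42%, 2.47% and 1.99% of all genes had an unadjusted p under 0.05 and 0%, 0.00606%, 0% and 0% passed the adjusted threshold. The striatal and central amygdala marker sum was 6162, 4834 and 4316 CPM in HT, 3638, 2763 and 3825 CPM in EA and 3936, 6177 and 2591 CPM in SEA, so every EA library lay below every HT library. The neuroendocrine marker sum was 34.7, 173 and 42.5 CPM in HT and 117, 162 and 162 CPM in EA. Their part in the Grin2d values was not tested.

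Whether the treatments acted differently in the 2 regions was tested as an interaction. For the HT effect, CEA minus PVN, 0 of the 33 genes passed by edgeR (0% of all genes) or DESeq2 (0.00575%), and 6 had an unadjusted p under 0.05 by edgeR, where 12.1% of all genes did. Gria4 had the smallest p (-0.49, SE 0.15, edgeR adjusted p = 0.413), and Grin2a had the largest difference (-2.23, SE 0.96). The 3 libraries low in long genes all enter it. With any 1 of these 3 left out, 0 of the 33 passed (0% of all genes) and 1 had an unadjusted p under 0.05. Of all genes, 923, 1135 and 1422 had one without PVN NC replicate 1, PVN NC replicate 3 and CEA HT replicate 2. With any 1 other library left out, 2 to 10 of the 33 had one. Without PVN NC replicate 2, the PVN controls left are both low in long genes. In that fit 3 of the 33 passed, among them Grin2a (-3.62, adjusted p = 0.0327) and Grin2b (-2.32, adjusted p = 0.0140), as did 3.93% of all genes. For the EA effect 0 of the 33 genes passed by edgeR (0% of all genes) and 4 had an unadjusted p under 0.05 (4.52% of all genes): Grin2d, Grm2, Grin3a and Grip2. Grin2d had a difference of 0.89 (SE 0.15, 95% interval 0.55 to 1.22, edgeR adjusted p = 0.292), with higher values in EA than HT in the CEA and none above the HT median in the PVN (63.1, 66.0 and 62.4 CPM in EA, 72.5, 76.8 and 64.3 CPM in HT). DESeq2 called this difference (adjusted p = 0.000452, with 0.283% of all genes called), and of the 33 genes it called Grin2d only.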

How the data were processed

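Per the labels and the study's methods, RNA from each dissected region was made into strand-specific libraries, and the authors mapped the reads with HISAT2 and counted them per gene with featureCounts (versions not given in the sources used here). The deposited values are raw whole-number counts, with no normalization, for 35032 genes. The methods name a rat build, the processing notes list GRCh38 and hg38, and the table names none, so its coordinates were not used. Of 2 header lines, 1 stray line that exchanges CEA EA replicates 2 and 3 was left out, and sample titles gave the groups.

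Counts were tested with edgeR 4.0.16 (R 4.3.3) by its quasi-likelihood test, two-sided, after filterByExpr and TMM scaling, on each comparison's own groups. p-values were adjusted by the Benjamini-Hochberg method over all genes tested, with a threshold of 0.05. CPM values use TMM factors over all 24 libraries. Depth was 13152772 to 18607032 counts per library, and the number of reads limits low genes. DESeq2 1.42.0, other size factors, no filter, a fit over all 4 groups of a region, a replicate block and leaving out each library were alternatives. Correlations were computed on log2 CPM of the gene and log2 of the summed marker CPM, with 100000 permutations. The test code was checked on simulated counts. Paralog reads counted to more than one gene could not be traced.

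Genes, lists and tests were chosen with earlier results of these data known. Levels are given as the range and median of each region for the regional comparison, and in every library for the smallest p-values of the treatment comparisons. For the pairing, deviations of same-numbered libraries from their group means correlated at 0.29, 0.13 and 0.20 between CEA NC and PVN NC and at 0.24, 0.18 and 0.29 between CEA HT and CEA NC, so blocked counts are given beside the unblocked main ones there. Some results are not reported here, and the counts of genes include them.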

Additional observations from a re-analysis of the deposited data

How the results depend on the processing

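Of 990 regional values under alternatives for genes called in the regional fits, 941 kept their direction and their side of the threshold and 49 lost the call, and of 492 treatment values for genes with an unadjusted p under 0.05, 473 kept both and 19 passed only under the alternative. None of these reversed direction. Over all 33 genes, 28 had 1 direction of the regional difference in all 4 treatments, and Gria1 (0.21 in NC, -0.06 in HT), Gria4 (0.18 and -0.26) and Grik3 (0.38 and -0.46) were among those that did not. The share of all genes that kept 1 direction was not computed. The regional count of 24 became 15 within NC alone (26.4% of all genes), 25 with DESeq2 (57.5%), 24 with the replicate block (56.1%) and 23 to 25 when 1 library was left out (54% to 57.9%). In NC alone the 15 became 18 with DESeq2 (29.2% of all genes), 18 with no filter (17.6%), 17 with the replicate block (27.5%) and 11 to 16 when 1 library was left out (14.3% to 36.1%), and the block ended the call of Grm5 (adjusted p = 0.0515). Leaving out 1 library gave 0 to 12 genes for PVN HT against NC, 0 to 14 for PVN EA against NC, 0 to 15 for PVN SEA against NC and 0 to 3 for the HT interaction, each maximum without PVN NC replicate 2, and 0 to 1 for PVN SEA against HT (without PVN SEA replicate 2). DESeq2 called 1 gene in PVN EA against HT and 1 in the EA interaction, and edgeR with no filter 1 in PVN EA against HT. The cause of these changes was not tested. The replicate block, RLE size factors and the fit over 4 groups gave 0 in every treatment comparison they were run on. Fits without PVN NC replicates 1 and 3, chosen after seeing the data, gave 0 for HT, EA and SEA against NC (0.00572%, 0.159% and 0.00573% of all genes). Without division by gene length Gria1 made up 15.6% (PVN) and 12.6% (CEA) of the AMPA sum, Gria2 55.4% and 51.2%, and Grin2d 37.1% of the GluN2 sum in the PVN. Depth limited Grm6 most, with 2 to 21 counts in the CEA.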
